A study of Mus musculus with 6 samples.

Results

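The mitotic proliferation genes are 40 genes whose products drive, time or carry out the division of a cell. They were taken by gene symbol from the expression arrays, and each gene was read from 1 probe set, a group of short probes for 1 transcript, choosing the probe set that was brightest on average over the 6 arrays. All 40 were measured, among 18193 genes tested. The study asked what changes in gene expression as the mouse ovary ages. Secondary follicles, which hold a growing oocyte inside several layers of granulosa cells, were freed with needles from the ovaries of female C57BL/6J mice. There were 3 samples from young mice of 9 weeks and 3 from old mice of 32 weeks, with no treatment or genetic change in either group. No source used here gives the number of mice or follicles behind a sample. The p-values therefore measure the spread between these samples.

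A dividing cell enters mitosis when cyclins and their kinases become active, packs its chromosomes with condensin and topoisomerase, and builds a spindle whose fibres hold the chromosomes at their kinetochores. The spindle assembly checkpoint holds the cell until every chromosome is attached; the anaphase-promoting complex, switched on by Cdc20, then destroys securin and the cyclins, the chromosomes part and the cell is cut in 2 by the central spindle and a contractile ring. In a secondary follicle the granulosa cells are the dividing cells. The oocyte does not divide, but it stores many of the same transcripts for its meiotic divisions, so that the level of a mitotic gene in a whole follicle is a sum over both cell types.

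Many mitotic genes share letters in their promoters, and these are shown because the members are usually described as being switched on together. A RefSeq window of 250 bases before and 50 bases after the transcription start (mouse build GRCm38.p6) was found for 32 of the 40 genes. CCAAT, the core of the box bound by the factor NF-Y, occurred on either strand in 21 of the 32 (65.6%) against 42.0% of the 14452 genes tested that have such a window. A gene with several windows counted as a match if any of them matched. TTTGAA, a form of the cell cycle homology region, occurred in 22 of the 32 (68.8%) against 15.7% of these genes. Both motifs were present in 19 of the 32 (59.4%), against 7.36% of these genes, and a match of one motif can share at most 1 base with a match of the other. A match is a description of the letters and no evidence of binding. The 250 bases before the start are printed 5′ to 3′ on the gene's own strand for the 2 genes with the largest rise and the 2 with the largest fall in old follicles among those with 1 window, and capitals mark CCAAT or TTTGAA on either strand.
Cdc20, chr4:118437344-118437593, minus strand: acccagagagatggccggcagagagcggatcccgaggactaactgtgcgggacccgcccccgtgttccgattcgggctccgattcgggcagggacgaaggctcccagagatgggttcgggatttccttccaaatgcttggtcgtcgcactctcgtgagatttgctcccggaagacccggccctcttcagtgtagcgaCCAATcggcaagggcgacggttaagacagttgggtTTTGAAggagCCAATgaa
Cenpe, chr3:135212313-135212562, plus strand: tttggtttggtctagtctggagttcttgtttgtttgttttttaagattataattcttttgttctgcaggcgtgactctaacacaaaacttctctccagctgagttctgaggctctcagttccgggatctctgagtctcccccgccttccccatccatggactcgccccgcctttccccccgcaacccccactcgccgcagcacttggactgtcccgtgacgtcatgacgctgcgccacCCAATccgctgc
Mad2l1, chr6:66534971-66535220, plus strand: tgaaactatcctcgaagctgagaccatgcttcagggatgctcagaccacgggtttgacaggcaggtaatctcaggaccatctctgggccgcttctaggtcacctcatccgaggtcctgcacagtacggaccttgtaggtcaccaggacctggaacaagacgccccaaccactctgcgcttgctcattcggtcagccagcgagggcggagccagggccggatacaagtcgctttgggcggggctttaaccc
Kif11, chr19:37376132-37376381, plus strand: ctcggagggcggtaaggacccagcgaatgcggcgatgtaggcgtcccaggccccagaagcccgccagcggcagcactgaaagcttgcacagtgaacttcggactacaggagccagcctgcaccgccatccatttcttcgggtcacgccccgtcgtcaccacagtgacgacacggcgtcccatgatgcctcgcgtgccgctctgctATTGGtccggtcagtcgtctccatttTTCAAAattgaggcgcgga
The Cdc20 window held 2 CCAAT matches and 1 TTTGAA match, the Cenpe window a single CCAAT, the Kif11 window 1 of each, and the Mad2l1 window neither. By the direction of change described below, CCAAT was found in 4 of 6 genes that were higher in old follicles, 3 of 4 that were lower and 14 of 22 that passed no threshold, and TTTGAA in 4 of 6, 3 of 4 and 15 of 22. Positions were counted from the start of the gene over all windows of the 32 genes. The first bases of the 48 CCAAT matches lay between -228 and -7 with a median of -76. Those of the 29 TTTGAA matches lay between -179 and 40 with a median of -18. Bub3 and Prc1 gave matches from more than 1 window, so a site in several windows of a gene was counted in each.

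All 40 genes were well above the dim end of the arrays. Their mean log2 intensity over the 6 arrays ran from 7.12 for Foxm1 to 12.89 for Pttg1, whereas only 62.6% of all genes reached a mean of 5. The marker genes of the 2 cell types of the follicle were also bright: 16 of 17 oocyte markers had a mean of at least 5, with the exception of Sohlh1, and so did all 15 granulosa cell markers. The median log2 intensity of the arrays lay between 4.93 and 4.95, and no sample stood apart in it. The upper quartile did separate the ages, the lowest young array standing at 7.17 and the highest old array at 7.14. Among genes with a mean of at least 5, the median log2 difference, old minus young, was -0.047, beside -0.0042 over all genes. The ages were therefore not level in the bright range where the 40 genes lie. The arrays also differed by age in their control probe sets. The 3′ minus 5′ log2 difference of the Gapdh control was 0.47 ± 0.014 (SD, n = 3) in young and 1.51 ± 0.0048 (SD, n = 3) in old samples, that of the beta-actin control 1.48 ± 0.033 and 2.53 ± 0.050, and that of the added bacterial transcripts, averaged over Dap, Lys, Phe and Thr, 3.33 ± 0.076 and 4.08 ± 0.10. Each gave an exact permutation p of 0.1, two-sided, the smallest that 3 against 3 samples allow. Of the added transcripts, Thr alone overlapped between the ages, at 4.55 ± 0.043 in young and 4.70 ± 0.24 in old samples (SD, n = 3 each, exact permutation p = 0.5). Apart from Thr, these control differences run with age, and their part in the results below was not tested.

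Some mitotic transcripts were higher in old follicles and others lower. In limma, with Benjamini-Hochberg adjustment over all 18193 genes and an adjusted p of at most 0.05, 8 of the 40 genes were higher in old follicles (20%, beside 10.1% of all genes) and 4 were lower (10%, beside 13.3%). Together these 12 made 30% of the members, beside 23.4% of all genes, and the other 28 did not pass. Among the 7361 genes at least as bright as the dimmest member, 8.97% were higher and 21.3% lower, or 30.3% together, beside 30% of the members. The genes that rose were Mki67, Ccnd2, Incenp, Bub1b, Cdc20, Cenpe, Kif2c and Ncaph, and those that fell were Mad2l1, Ttk, Kif11 and Kif23. Quantile or cyclic loess scaling of the arrays gave 11 higher and 3 lower. The counts were smaller when 1 array was left out. They were 3 higher and 1 lower without young replicate 2, and 3 higher and 3 lower without young replicate 3. Without old replicate 3 they were 5 higher and 1 lower, and without old replicate 1 or old replicate 2, 5 higher and 3 lower. The counts over all genes also fell with any array left out, as given in the closing section. Before adjustment, 12 members were higher at p below 0.05, beside 16.9% of all genes, and 5 lower, beside 20.4% of all genes.

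The changes were small. None of the 40 reached a fold of at least 2 with an adjusted p of at most 0.05 in limma, which 0.638% of all genes passed upwards and 0.126% downwards, 0.764% in all. The study set the same fold with a q-value of SAM, another test for arrays. SAM as run here takes the fold from the same values, so it could call none of the 40 at that fold. The log2 fold change, old minus young, ran from -0.33 for Mad2l1 to 0.48 for Cdc20, and its median size irrespective of sign was 0.11 over the members and 0.13 over all genes. The 95% interval of every member lay inside a fold of 2 in either direction, as it did for 98.4% of all genes. Over the 40 intervals the lowest bound was -0.49 and the highest 0.59, and for the 28 genes that passed no threshold the bounds lay between -0.34 and 0.39. The median log2 fold change was 0.05 beside -0.0042 over all genes, but it came to -0.0037 with the average of each gene's probe sets in place of the brightest, and to -0.010 without probe sets shared between transcripts. In a whole follicle, fewer cells of a type and less RNA per cell cannot be told apart.

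**Figure D1:**
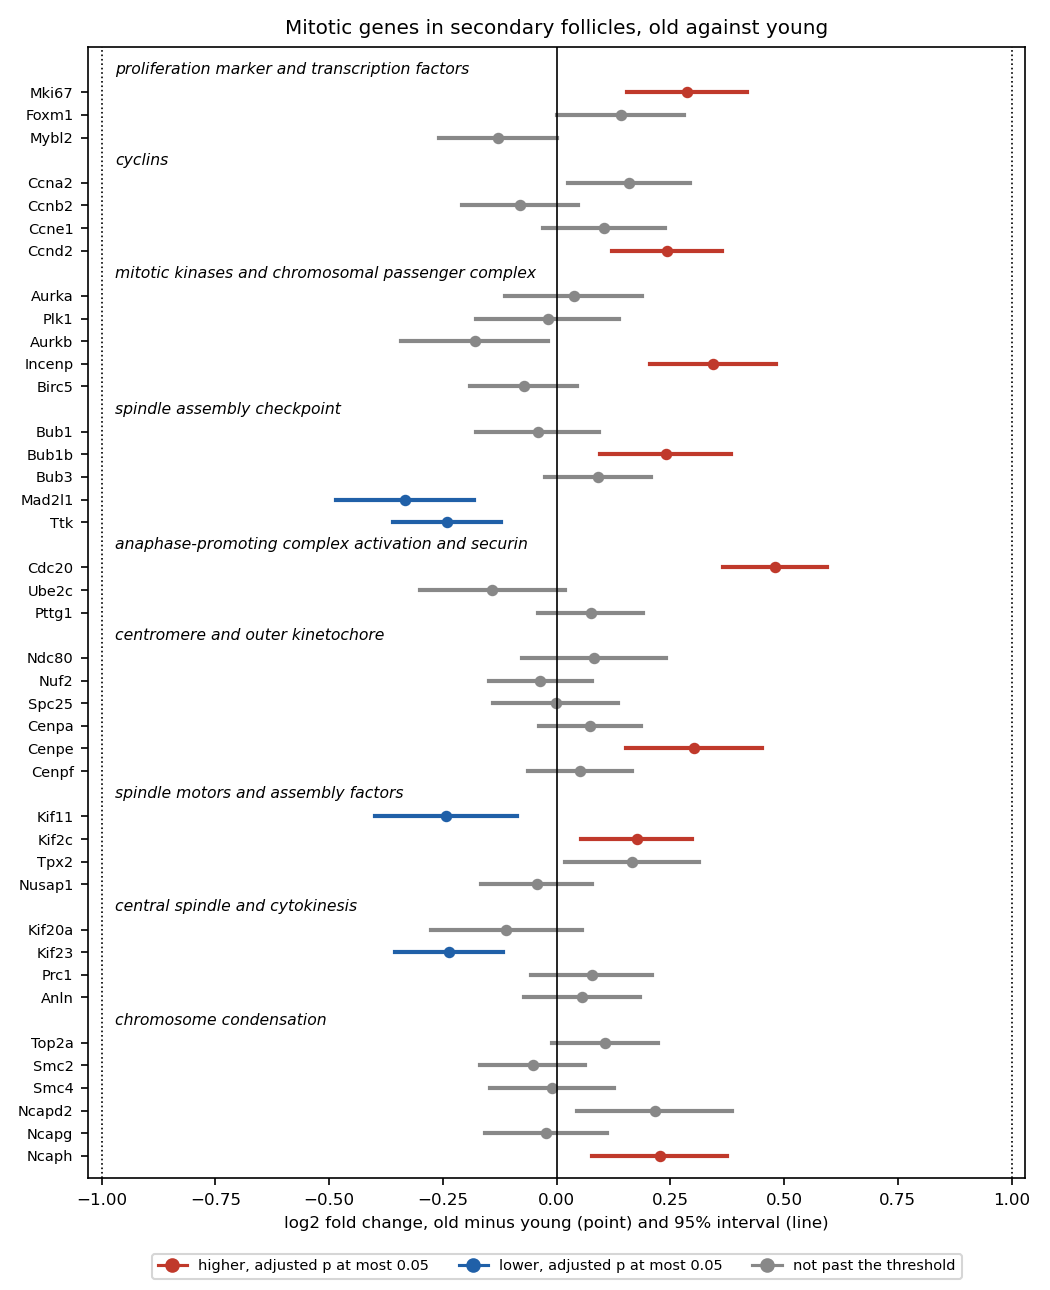
Log2 fold change, old minus young, of the 40 mitotic genes by role, with its 95% interval from limma (3 young and 3 old arrays). The 8 genes in red rose and the 4 in blue fell (adjusted p of at most 0.05), and every interval lies between the dotted lines at a fold of 2.

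The replicates were tight. The median SD within a group was 0.047 log2 units for the members and 0.079 for all genes. The 3 young and 3 old values did not overlap in 27 of the 40 genes (67.5%), beside 42.5% of all genes. The members are brighter than most genes and have a smaller SD, and the share among equally bright genes was not computed. In 17 of these the old values were the higher (18.9% of all genes) and in 10 the lower (23.7% of all genes). All 12 genes past the threshold were among these, and 15 more had separate groups without passing, Aurkb, Ccna2, Foxm1, Mybl2, Ncapd2, Top2a, Tpx2 and Ube2c among them. Relative to the young mean, the median of the 40 genes stood at 0.035, -0.0034 and -0.025 on the 3 young arrays and at 0.021, 0.067 and 0.050 on the 3 old arrays. Young replicate 1 was thus above old replicate 1 in this median, and the ages overlapped. Young replicate 1 had the highest young value in 23 of the 40 genes and old replicate 2 the highest old value in 22.

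**Figure D2:**
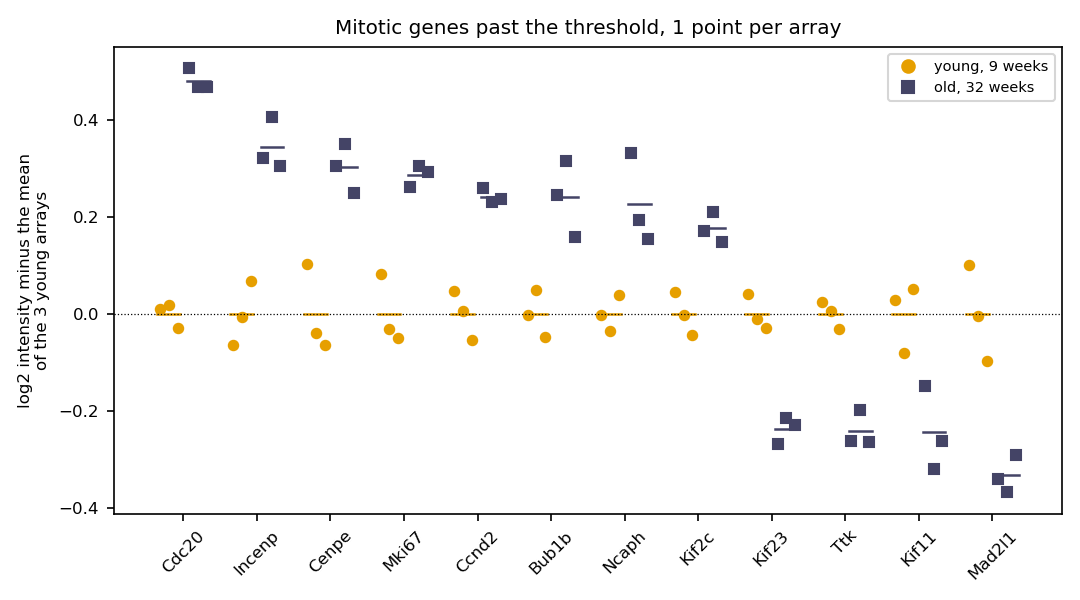
Log2 intensity of the 12 mitotic genes past the threshold on each array, minus the mean of the 3 young arrays of that gene (circles, young at 9 weeks; squares, old at 32 weeks; short bars, group means). In each gene the old arrays all lie on 1 side of the young arrays, from -0.33 on average for Mad2l1 to 0.48 for Cdc20.

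Mki67 encodes Ki-67, a protein of the chromosome surface that is present in cycling cells and absent from resting ones. It read 10.67, 10.56 and 10.54 in young and 10.85, 10.90 and 10.88 in old samples on the log2 intensity scale. Every old value was above every young one. The means were 10.59 ± 0.071 and 10.88 ± 0.023 (SD, n = 3 each), a rise of 0.29 (SE 0.056, adjusted p = 0.012 by limma) or 1.22-fold. The comparison was repeated in 16 other ways, 3 of which change the choice of probe set and 13 the scaling, filter, test or arrays; Mki67 has 1 probe set, so only the 13 could move it, and it passed in all of them. The transcription factors that switch on genes of the late cell cycle did not pass: Foxm1 differed by 0.14 (adjusted p = 0.13) and Mybl2 by -0.13 (adjusted p = 0.14, limma). Mybl2 read 8.06, 7.94 and 8.01 in young and 7.88, 7.91 and 7.84 in old samples. The groups of Mybl2 were separate by a narrow margin, with old replicate 2 closest to young replicate 2.

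Among the cyclins only Ccnd2 passed, the D-type cyclin of granulosa cells, which acts in G1 upon stimulation by follicle-stimulating hormone. It read 11.57, 11.53 and 11.47 in young samples and 11.78, 11.75 and 11.76 in old. The old samples lay close together above all young ones. The means were 11.52 ± 0.051 and 11.77 ± 0.015 (SD, n = 3 each), a rise of 0.24 (SE 0.052, adjusted p = 0.016, limma) that no longer passed without young replicate 2, young replicate 3 or old replicate 3, with SAM, or with the mean of its probe sets, where it was 0.07 (adjusted p = 0.45). Ccna2, the cyclin of S phase and mitotic entry, differed by 0.16 (adjusted p = 0.087) and passed under 5 of 15 alternatives by limma, while Ccne1, the cyclin of the start of S phase, differed by 0.10 (adjusted p = 0.23, limma). Ccnb2, a mitotic B-type cyclin, read 9.40, 9.43 and 9.33 in young and 9.28, 9.35 and 9.28 in old samples. Its groups overlapped, and the difference of -0.08 was not past the threshold (adjusted p = 0.33, limma).

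Of the mitotic kinases and the chromosomal passenger complex, 1 of 5 genes passed the threshold, beside 23.4% of all genes. Incenp, the scaffold that ties Aurora B to the inner centromere, read 10.45, 10.50 and 10.58 in young and 10.83, 10.92 and 10.81 in old samples. All old values were above all young ones. The means were 10.51 ± 0.066 and 10.85 ± 0.054 (SD, n = 3 each), a rise of 0.34 (SE 0.059, adjusted p = 0.0067, limma) or 1.27-fold, though with the mean of its probe sets it was 0.09 and did not pass (adjusted p = 0.25). Its partners in the complex did not pass: Aurkb, the kinase itself, differed by -0.18 (adjusted p = 0.10) and Birc5, which docks the complex on chromatin, by -0.07 (adjusted p = 0.34, limma). Aurka, the kinase of the spindle poles, differed by 0.04 (adjusted p = 0.71). Plk1, a kinase with roles from mitotic entry to cytokinesis, read 9.54, 9.34 and 9.35 in young and 9.40, 9.41 and 9.37 in old samples. The old values fell inside the young range, which was set by the high young replicate 1, and the difference was -0.02 (adjusted p = 0.86, limma).

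The spindle assembly checkpoint had changes in both directions, 1 gene higher and 2 lower of 5, beside 10.1% and 13.3% of all genes. Mad2l1, which encodes the inhibitor that binds Cdc20, read 10.35, 10.24 and 10.15 in young and 9.90, 9.88 and 9.95 in old samples. All young values were higher, and the young samples were the more spread. The means were 10.24 ± 0.099 and 9.91 ± 0.038 (SD, n = 3 each), and the level fell by 0.33 on the log2 scale (SE 0.065, adjusted p = 0.011, limma), past the threshold under all 13 repeats that could move it, since it too has 1 probe set. Ttk, the kinase that recruits the checkpoint to unattached kinetochores, read 9.34, 9.33 and 9.29 in young and 9.06, 9.12 and 9.06 in old samples. Its groups were well apart, and it fell by 0.24 (SE 0.051, adjusted p = 0.015, limma), a call that was lost without young replicate 2 or old replicate 3 and with the mean of its probe sets, where the change was -0.13 (adjusted p = 0.17).

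Bub1b, which encodes BubR1, another inhibitor of Cdc20 in the same checkpoint complex, read 10.75, 10.80 and 10.71 in young and 11.00, 11.07 and 10.91 in old samples. Here the old samples were the higher ones, by 0.24 (SE 0.061, adjusted p = 0.029, limma), with means of 10.75 ± 0.049 and 10.99 ± 0.079 (SD, n = 3 each). The call was lost with SAM and on leaving out any single array except old replicate 3. Bub3, which carries Bub1 and BubR1 to kinetochores, differed by 0.09 (adjusted p = 0.23, limma). Bub1, a checkpoint kinase, read 9.82, 9.86 and 9.93 in young and 9.88, 9.78 and 9.82 in old samples. Its groups overlapped, with a difference of -0.04 (adjusted p = 0.64, limma).

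Cdc20, the target of this checkpoint and the mitotic activator of the anaphase-promoting complex, showed the largest change of the 40. It read 10.29, 10.30 and 10.25 in young and 10.79, 10.75 and 10.75 in old samples. The 3 samples of each age were nearly identical, and the ages were far apart relative to that spread. The means were 10.28 ± 0.025 and 10.76 ± 0.022 (SD, n = 3 each), a rise of 0.48 (SE 0.049, adjusted p = 9.0e-04, limma) or 1.40-fold, and of 0.31 with the mean of its probe sets (adjusted p = 0.0059). Ube2c, the ubiquitin-conjugating enzyme that works with the complex, differed by -0.14 (adjusted p = 0.18, limma). Pttg1, which encodes securin, the inhibitor of separase, read 12.86, 12.85 and 12.84 in young and 12.91, 12.96 and 12.90 in old samples. The old values were all higher, but the difference was 0.07 and did not pass (adjusted p = 0.31, limma).

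At the centromere and outer kinetochore, 1 of 6 genes passed the threshold, beside 23.4% of all genes. Cenpe, the kinesin that moves chromosomes to the spindle equator, read 8.75, 8.61 and 8.58 in young and 8.95, 9.00 and 8.90 in old samples. The groups were separate, and young replicate 1 was the nearest to the old ones. The means were 8.65 ± 0.091 and 8.95 ± 0.051 (SD, n = 3 each), a rise of 0.30 (SE 0.064, adjusted p = 0.015, limma) that was not past the threshold without young replicate 2 or young replicate 3, and that came to 0.20 with the mean of its probe sets (adjusted p = 0.036). Of the NDC80 complex, the main microtubule grip of the kinetochore, the 3 subunits among the members did not pass, Ndc80 differing by 0.08, Nuf2 by -0.04 and Spc25 by -0.0015, while its remaining subunit Spc24, which is not among the 40, was higher by 0.19 (adjusted p = 0.043, limma). Spc25 read 9.44, 9.49 and 9.47 in young and 9.50, 9.37 and 9.52 in old samples. The old samples lay on both sides of the young ones, with a 95% interval of the difference from -0.14 to 0.14 (adjusted p = 0.99, limma). Cenpa, the histone that marks centromeres, and Cenpf, a large protein of the outer kinetochore, differed by 0.07 and 0.05 (adjusted p = 0.31 and 0.49, limma).

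The spindle motors moved apart. Kif11, the kinesin that pushes spindle poles away from each other, read 8.17, 8.06 and 8.19 in young and 7.99, 7.82 and 7.88 in old samples. Its values were lower in every old sample, with old replicate 1 closest to young replicate 2. It fell by 0.24 (SE 0.067, adjusted p = 0.037, limma) from 8.14 ± 0.071 to 7.90 ± 0.087 (SD, n = 3 each), and was past the threshold under 7 of the 16, failing with either scaling, with SAM, without any single array except old replicate 1, and with the mean of its probe sets at -0.16 (adjusted p = 0.075). Kif2c, a kinesin that takes microtubules apart at centromeres, read 8.75, 8.70 and 8.66 in young and 8.87, 8.91 and 8.85 in old samples. All old values were higher and the rise was 0.18 (SE 0.052, adjusted p = 0.047, limma), but it held under only 6 of the 16, failed without any 1 array and was reversed in another probe set, described below. Tpx2, a spindle assembly factor that activates Aurora A, differed by 0.17 (adjusted p = 0.10, limma) and passed under 4 of the 15, both scalings among them. Nusap1, which bundles spindle microtubules, read 10.15, 10.26 and 10.20 in young and 10.15, 10.16 and 10.16 in old samples. The groups overlapped, with a difference of -0.04 (adjusted p = 0.58, limma).

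In the central spindle and cytokinesis, 1 of 4 genes passed the threshold, beside 23.4% of all genes. Kif23, the kinesin subunit of the centralspindlin complex, read 9.70, 9.65 and 9.63 in young and 9.39, 9.45 and 9.43 in old samples. The young samples were all higher. The means were 9.66 ± 0.036 and 9.42 ± 0.028 (SD, n = 3 each), and it fell by 0.24 (SE 0.050, adjusted p = 0.016, limma), which did not pass without young replicate 2, old replicate 1 or old replicate 3, nor with the mean of its probe sets at -0.15 (adjusted p = 0.11). Kif20a, the kinesin that brings Aurora B to the midzone, differed by -0.11, and Prc1, which crosslinks midzone microtubules, by 0.08 (adjusted p = 0.30 and 0.37, limma). Anln, the anillin scaffold of the contractile ring, read 9.01, 8.93 and 8.93 in young and 9.04, 9.04 and 8.96 in old samples. Its groups overlapped, with a difference of 0.06 (adjusted p = 0.50, limma).

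In chromosome condensation, 1 of 6 genes passed the threshold, beside 23.4% of all genes. Ncaph, the subunit that closes the ring of condensin I, read 8.75, 8.72 and 8.79 in young and 9.09, 8.95 and 8.91 in old samples. The old samples were higher but uneven, with old replicate 1 highest. The means were 8.76 ± 0.037 and 8.98 ± 0.093 (SD, n = 3 each), a rise of 0.23 (SE 0.063, adjusted p = 0.039, limma) that held under 8 of the 16 and was lost when any 1 array was left out. Ncapd2, another subunit of condensin I, differed by 0.22 with separate groups but did not pass (adjusted p = 0.071), although it did under 7 of 15 alternatives by limma, the mean of its probe sets among them at 0.26 (adjusted p = 0.016). Ncapg differed by -0.02 (adjusted p = 0.80, limma). Smc2 and Smc4, the ATPase core of both condensins, differed by -0.05 and -0.01. Smc4 read 11.35, 11.27 and 11.22 in young and 11.21, 11.27 and 11.31 in old samples. Its groups covered the same range, although the mean of its probe sets passed at -0.25 (adjusted p = 0.012, limma). Top2a, the topoisomerase that untangles sister chromatids, differed by 0.11 (adjusted p = 0.17, limma).

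Many of the genes were read by more than 1 probe set, and these gave a second view of the same transcripts on the same arrays. The 40 genes had 100 probe sets, with 31 genes having several and Ccnd2 the most, at 7. In a fit over all 34945 probe sets of 1 gene symbol, 17 of the 100 were higher (17%, beside 8.95% of all probe sets) and 14 lower (14%, beside 13.8%). None of the 100 passed a fold of 2 with an adjusted p of at most 0.05, which 0.466% of all probe sets passed upwards and 0.552% downwards. Among the 60 that were not the brightest of their gene, 10 were higher and 10 lower. The second brightest probe set pointed the same way as the brightest in 19 of 31 genes, and its median log2 fold change was -0.042 where that of the brightest was 0.075 over the same genes. Of the 12 genes past the threshold, 10 had a second probe set, which had the same sign in 8 and passed the same way in 3, Kif11, Kif23 and Ncaph.

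**Figure D3:**
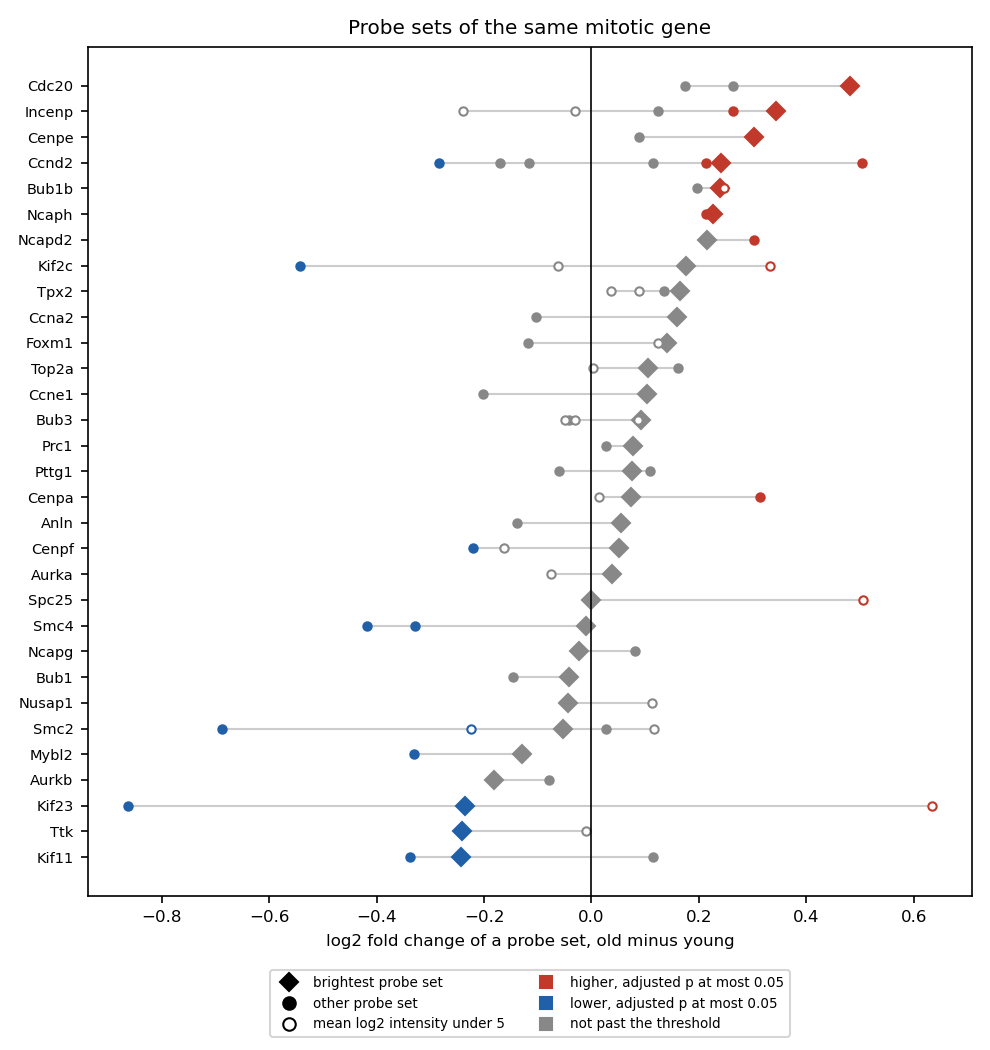
Log2 fold change, old minus young, of every probe set of the 31 mitotic genes that have several, 1 row per gene. Probe sets of 1 gene lie on both sides of 0 in many rows, and Ccnd2, Kif2c and Kif23 have probe sets past the threshold in both directions.

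Probe sets past the threshold in opposite directions occurred in 3 of the 31 genes (9.68%, beside 4.2% of the 9010 genes with several probe sets), and in 1, Ccnd2, when probe sets with a mean below 5 were set aside. For Ccnd2 1 probe set read 10.96, 10.84 and 10.88 in young and 11.39, 11.47 and 11.34 in old samples, a log2 fold change of 0.50 (adjusted p = 0.0019, limma over probe sets). Another Ccnd2 probe set read 10.55, 10.44 and 10.44 in young and 10.18, 10.23 and 10.17 in old samples, a log2 fold change of -0.28 (adjusted p = 0.014). Both had separate groups, so that Ccnd2 was higher or lower in old follicles according to the probes used. For Kif2c the second brightest probe set read 7.16, 7.23 and 7.15 in young and 6.70, 6.69 and 6.52 in old samples, a log2 fold change of -0.54 (adjusted p = 0.0019, limma over probe sets), while the brightest, at 0.18, did not pass in that fit (adjusted p = 0.066), and the probe set of Kif2c that did pass upwards, at 0.33, had a mean of 4.24. Kif23 had probe sets at -0.24, -0.86 and 0.63, the last of them with a mean below 5. Smc2 did not pass by its brightest probe set, but its next brightest, at 8.55, 8.51 and 8.44 in young and 7.83, 7.80 and 7.80 in old samples, had a log2 fold change of -0.69 (adjusted p = 3.1e-04, limma over probe sets). Smc4 likewise had further probe sets at -0.42 and -0.33 beside -0.01 for the brightest.

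For some other genes the probe sets pointed the same way. The 3 probe sets of Cdc20 were at 0.48, 0.17 and 0.26, of which only the first passed in the fit over probe sets. The 3 of Bub1b were at 0.24, 0.20 and 0.25. Of these the second did not pass (adjusted p = 0.062, limma over probe sets) and the third had a mean of 4.02. The 2 of Ncaph were at 0.23 and 0.21, and both passed. Those of Mybl2 were at -0.13 and -0.33, of which the dimmer passed (adjusted p = 0.019, limma over probe sets). Incenp had 3 probe sets with mean log2 intensities above 5, at 0.34, 0.12 and 0.26, and 2 dim ones at -0.24 and -0.03. The type of probe set also differed between the genes that rose and those that fell. Probe sets whose names end in _s_at or _x_at can bind more than 1 transcript. They served as the brightest for 10 members, of which 5 rose and none fell, their median standing at 0.14 on the log2 scale, whereas the other 30 members had 3 higher and 4 lower and a median of -0.015. Over all genes, 16.9% of the 1602 read by such probe sets were higher and 9.80% lower, against 9.43% and 13.7% of the other 16591. With those probe sets left out, Cdc20 stood at 0.17 (adjusted p = 0.060, limma) and Incenp at 0.12, neither past the threshold, and their part in the result was not tested further.

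Genes that work beside the 40 also went both ways. Of 88 other mitotic genes, 15 were higher (17%) and 17 lower (19.3%), beside 10.1% and 13.3% of all genes. Their median log2 fold change was -0.020. By smallest p these were led by Fzr1, the Cdc20 relative that activates the anaphase-promoting complex after mitosis, at -0.61, the kinetochore gene Zwint at -0.38, the complex's inhibitor Fbxo5 at -0.40, the phosphatase inhibitor Arpp19 at 0.31 and the microtubule polymerase Ckap5 at -0.40. Of the 14 subunits of the anaphase-promoting complex itself, 2 were higher (14.3%), Anapc13 at 0.30 and Anapc15 at 0.29. Another 2 were lower (14.3%), Anapc16 at -0.32 and Anapc10 at -0.25. In the same samples in which Cdc20 rose, its counterpart Fzr1 read 7.84, 7.72 and 7.69 in young and 7.05, 7.30 and 7.07 in old samples, all old values below all young ones.

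The genes of DNA replication, the step before mitosis, gave 4 higher (8.33%) and 8 lower (16.7%) of 48, with a median log2 fold change of -0.018. Rfc3, a subunit of the clamp loader, stood at -0.80 and Pcna, the sliding clamp, at -0.79, with Orc1 of the origin recognition complex at -0.44, the polymerase subunit Pold1 at 0.40 and the ribonucleotide reductase subunit Rrm2 at 0.33. Pcna read 11.97, 11.82 and 11.79 in young and 11.10, 11.05 and 11.05 in old samples, a change of -0.79 that was larger than that of any of the 40 mitotic genes by its brightest probe set. Of 20 G1 cyclins, kinases and their partners, 2 were higher (10%) and 4 lower (20%). Rbl2, a relative of the retinoblastoma protein, stood at -0.72, Ccne2 at -0.59, Cdk2 at -0.36, Cdk4 at -0.32 and E2f7 at 0.24. Over the 4 related lists together, 13.5% of 170 genes were higher and 18.2% lower, beside 10.1% and 13.3% of all genes. Among the 7361 genes at least as bright as the dimmest of the 40, 8.97% were higher and 21.3% lower. Not all of the 170 genes are that bright, and a share at matched brightness was not computed for them.

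**Figure D4:**
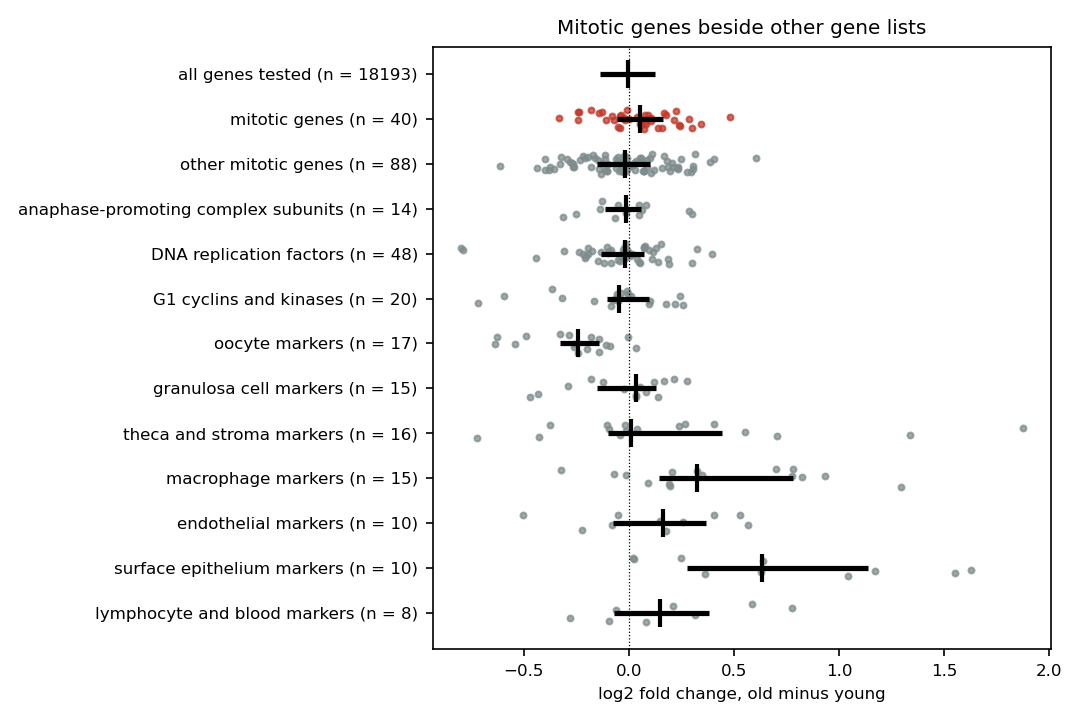
Log2 fold change, old minus young, of the 40 mitotic genes, of related gene lists and of cell type markers (points, genes; vertical bars, medians; horizontal bars, the middle 50% of genes; all genes tested are shown without points). The mitotic genes centre near 0 with a median of 0.05, the oocyte markers below 0 at -0.24, and the surface epithelium markers above 0 at 0.63.

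Markers of several cell types moved with age, and their part in the mitotic results was not tested. By the same threshold 10.1% of all genes were higher and 13.3% lower. For oocyte markers 11 of 17 were lower and none higher, their median being -0.24, and their summed intensity was 38873 to 40319 in young and 33570 to 34202 in old samples. Bmp15 and Mos moved most, both by -0.63. For granulosa cell markers 2 of 15 were higher and 3 lower, with a median of 0.036 and sums of 40329 to 41771 and 42075 to 42850. Esr2 at -0.47 and Kitl at -0.43 moved most.

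The other marker lists stand for cells that surround or supply the follicle. Surface epithelium markers were higher in 8 of 10 genes and lower in none, with sums of 1056 to 1076 and 1416 to 1474. They were led by Krt7 at 1.63 and Krt19 at 1.55, and 3 of the 10, Krt7 among them, had means below 5. Macrophage markers were higher in 9 of 15 and lower in 1, with sums of 443 to 452 and 620 to 651, led by Mpeg1 at 1.30 and Tyrobp at 0.93, while 7 of the 15, Adgre1, Ptprc and Cd68 among them, had means below 5. Theca and stroma markers were higher in 6 of 16 and lower in 3, with sums of 8028 to 8323 and 8446 to 8545. Star at 1.87 and Cyp11a1 at 1.34 moved most, but 8 genes stood above 0 and 8 below, with a median of 0.012. The 3 that were lower were Hhip at -0.72, Col1a2 at -0.43 and Tcf21 at -0.38. Hhip and Cnn1 had means below 5. Endothelial markers were higher in 4 of 10 and lower in 1, with sums of 396 to 402 and 483 to 524. They were led by Esam at 0.57 and Cldn5 at 0.53, and 4 of the 10 had means below 5. Lymphocyte and blood markers were higher in 2 of 8 and lower in 1, with overlapping sums of 242 to 259 and 245 to 257. They were led by Alas2 at 0.77 and Nkg7 at 0.59, and 6 of the 8, Nkg7 among them, had means below 5. The summed intensity of the 40 mitotic genes was 40814 to 42560 in young and 43589 to 44481 in old samples. Over all genes tested the sum was 5.19e+06 to 5.30e+06 in young and 5.08e+06 to 5.15e+06 in old samples. The brightest genes weigh most in such a sum, Pttg1 being the brightest of the 40.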

How the data were processed

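Total RNA of 6 follicle samples was labelled and hybridised to Affymetrix 3′ expression arrays of the mouse genome, 1 array per sample. Per the methods, the authors normalised the arrays by robust multiarray average (RMA). The deposited table holds intensity on a linear scale for 45101 probe sets, and log2 was taken here with no pseudocount. The analysis had been planned for log2 values. Probe sets of 1 gene symbol (34958) were kept, 932 with several symbols and 9211 not listed were left out, and 18032 of 18194 gene IDs were named from RefSeq GRCm38.p6. The brightest probe set by mean over the 6 arrays stood for each gene. Old and young samples were compared with limma 3.58.1 in R 4.3.3 (lmFit, eBayes, two-sided, no covariates), with Benjamini-Hochberg adjustment over 18193 genes. Controls were compared by an exact permutation test. RMA medians equalise the arrays, so a shift of all genes together is not seen, and 3 arrays per age limit the precision. The scripts were tested on simulated data.

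Values in every sample are given for members past an adjusted p of 0.05, for the 3 largest and 3 smallest fold changes and for the smallest change in each role. Other probe sets were to be named at a fold of 2, and those named below it, together with Fzr1 and Pcna by sample, were chosen after their values were seen. Up to 5 genes of each related list, by p, and 2 of each marker list, by size, are named. The members and lists were chosen with earlier results of these data known. Alternatives were other choices of probe set, a filter on genes with a mean log2 intensity under 5, quantile and cyclic loess scaling, a prior with a trend, array weights, SAM (the method of the study, with 20 assignments of labels), each array left out, and a block for replicate numbers. Protein sequences and Ccnb1 and Hjurp were not analysed here.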

Additional observations from a re-analysis of the deposited data

How the results depend on the processing

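No member was called at a fold of 2 under any of the alternatives. In place of 8 higher members, the count came to 5 without probe sets shared between transcripts and 4 with SAM, which did not call Ccnd2, Bub1b, Kif2c, Ncaph or Kif11. The second brightest probe set, an alternative chosen after seeing the data, could be read for 31 members and gave 4 higher and 7 lower. The brightest of the same 31 gave 7 higher and 3 lower. In the fit over all probe sets of 1 gene symbol, 8.95% were higher and 13.8% lower. Over the 9010 genes with a second probe set, its median log2 fold change was -0.020. Calls were gained by 8 members under 1 or more limma alternatives, most often by Ncapd2, Ccna2 and Tpx2. Leaving out each array gave 3 to 6 higher and 1 to 3 lower members, with 1145 (without young replicate 2) and 1137 (without old replicate 3) of all genes higher in place of 1835, over a range of 1137 to 1471, and 1478 to 2153 lower in place of 2422. The median over members moved from 0.05 to -0.0037 with the mean of all probe sets, -0.010 without shared ones, 0.096 with quantile scaling, 0.10 with cyclic loess and -0.042 with the second brightest. Mki67 and Mad2l1, with 1 probe set each, were past the threshold under all 13 alternatives that do not concern the choice of probe set.

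Some members changed sign, most of them near 0 in the main comparison, where Kif2c stood at 0.18 and Ccne1 at 0.10. With the mean of all probe sets, Ccne1 came to -0.0486, Aurka -0.0185, Spc25 0.252 (adjusted p = 0.034, limma), Cenpf -0.111, Kif2c -0.0242, Nusap1 0.0347, Anln -0.0414 and Ncapg 0.0288. Without shared probe sets, Ccne1 came to -0.202, Bub3 -0.0421, Pttg1 -0.0600 and Kif2c -0.543. With quantile scaling, Plk1 came to 0.0284, Bub1 0.0023, Nuf2 0.0259, Spc25 0.0529 and Ncapg 0.0420. With cyclic loess, Plk1 came to 0.0342, Bub1 0.0062, Nuf2 0.0222, Spc25 0.0517, Smc2 0.0010, Smc4 0.0109 and Ncapg 0.0428. With array weights, Plk1 came to 0.0137, Spc25 0.0075, Smc4 0.0135 and Ncapg 0.0124. Leaving out each array gave -0.00054 to 0.0812 for Aurka, -0.0542 to 0.0446 for Plk1, -0.0274 to 0.0444 for Spc25, -0.0403 to 0.0249 for Smc4 and -0.0641 to 0.00998 for Ncapg. With the mean of all probe sets or without shared ones, the values draw on other probe sets of the same gene. Kif2c at -0.543 is its second brightest probe set. Spc25 at 0.252 includes a probe set at 0.51 with a mean of only 4.19. The cause of the other sign changes was not tested.

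Replicate numbers do not pair the samples: deviations of same-numbered samples correlated at 0.053, -0.00030 and 0.043. With the replicate block, 6 members were higher and 4 lower, Kif2c (adjusted p = 0.092) and Ncaph (adjusted p = 0.071, limma) no longer passing. Precision is limited by 3 arrays per age and by spot brightness, 21 of the 100 member probe sets having a mean below 5.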
